A study of Homo sapiens with 2 samples.

Results

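The miR-30 family of microRNAs (miRNAs) was measured in exosomes, which are membrane vesicles shed by cells, collected from 2 cultures of the human liver cancer (hepatocellular carcinoma) line HuH-7. Its members are the 10 probes that the scanner output names as the 5p arms of miR-30a, 30b, 30c, 30d and 30e and the 3p arms of miR-30a, 30b, 30c-1, 30c-2 and 30d, chosen by name out of 2565 miRNA probes. The samples were labelled HuH-7-M exosome and HuH-7-P exosome, and the labels do not spell out M and P. The series title places them in work on cell lines of liver cancer with high intrahepatic metastasis, and the design implies a comparison of the vesicles of HuH-7-M with those of HuH-7-P. Both cultures were kept in medium with 10% fetal bovine serum and penicillin and streptomycin and were moved to advanced DMEM, a low-serum medium, before the medium was filtered and the vesicles were pelleted in an ultracentrifuge (110000 g, 70 min). Their RNA was labelled with Cy5 and hybridised to 1 array per culture, so no difference below has a replicate, no test between HuH-7-M and HuH-7-P could be made, and anything that differed between the preparations cannot be told apart from the cultures.

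miRNAs are cut from a hairpin precursor that yields a strand from each side, the 5p and the 3p arm. The strand kept by an Argonaute protein, the guide, represses messenger RNAs that pair with its seed, bases 2 to 8, while the other strand, the passenger, is mostly degraded. In the miR-30 family the 5p arm is usually the guide, and its shared seed gives the members overlapping targets, among them SNAI1, a transcription factor of the epithelial to mesenchymal transition. The family is abundant in epithelial tissues, liver included.

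The reference sequences are shown because the matched 5p arms share a seed and the matched 3p arms do not. RefSeq sequences on GRCh38.p14 were matched for 6 of the 10 members, and also for miR-30e-3p, which is on the array but is not a member. The mature miRNAs are written 5′ to 3′ with the seed in capitals.
miR-30a-5p: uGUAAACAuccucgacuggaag
miR-30c-5p: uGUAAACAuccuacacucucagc
miR-30e-5p: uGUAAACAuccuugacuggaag
miR-30a-3p: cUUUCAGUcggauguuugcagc
miR-30e-3p: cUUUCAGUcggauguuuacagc
miR-30c-1-3p: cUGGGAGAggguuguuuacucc
miR-30c-2-3p: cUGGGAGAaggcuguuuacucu

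The 3 matched 5p arms had the same seed, GUAAACA. Counted from the 5′ end of miR-30a-5p, miR-30e-5p differed at 1 of 22 bases (C13U) and miR-30c-5p at 5 of 22 (C13A, G14C, G18C, G19U and A20C). The matched 3p arms had different seeds. miR-30a-3p and miR-30e-3p shared UUUCAGU and differed at 1 of 22 bases (G18A), and miR-30c-1-3p and miR-30c-2-3p shared UGGGAGA and differed at 3 of 22 (G9A, U12C and C22U). miR-30a-3p and miR-30c-1-3p differed at 9 of 22 bases. A probe for a 5p arm may also bind its near-identical relatives, so readings of near-identical arms may not be independent of each other, which was not tested.

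The hairpin of MIR30C2 (minus strand, GRCh38.p14, chr6:71376960-71377031) is shown because it gives both a dim 5p arm and the brightest 3p arm of the family, each in capitals.
MIR30C2: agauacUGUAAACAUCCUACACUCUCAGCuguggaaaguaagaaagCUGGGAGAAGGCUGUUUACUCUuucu
The miR-30c-5p sequence is encoded a second time in MIR30C1 (chr1:40757284-40757372, plus strand), so that probe cannot tell the genes apart, while each gene has a 3p probe of its own. Whether those 3p probes also bind each other's miRNA was not tested. MIR30C1 lies 2837 bases from MIR30E (chr1:40754355-40754446, plus strand), both within the span of the protein-coding gene NFYC. MIR30A (chr6:71403551-71403621, minus strand) lies 26519 bases from MIR30C2, and no other gene of the RefSeq table spans either.

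Signal is the spot median after subtracting the mean BLANK spot of the same array, in linear intensity units, with 1 spot per miRNA and array. A miRNA was called above background where it exceeded the BLANK mean by more than 2 SD of the BLANK spots, which is a signal of 2.44 for HuH-7-M exosomes and 2.62 for HuH-7-P exosomes. A stricter limit, drawn from 85 spots labelled No Probe, was 31.2 for HuH-7-M exosomes and 27.2 for HuH-7-P exosomes. On each array all 85 of these spots exceeded the BLANK limit, so passing that limit does not set a miRNA probe apart from them. Of all miRNA probes, 62.1% exceeded the BLANK limit on both arrays and 30.8% the No Probe limit. The error of a single spot was taken from 12 control probes of the members' brightness that are spotted 8 or 16 times, and had a median SD of 2.15 for HuH-7-M exosomes and 2.05 for HuH-7-P exosomes. The SD of single control probes ran from 0.61 to 23.1 on HuH-7-M and from 1.24 to 37.8 on HuH-7-P, so 1 spot can stray far beyond the median. This error covers spotting and reading within an array only. Different probes bind and are labelled unequally, so a brighter probe does not show a more abundant miRNA.

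Above the BLANK limit on both arrays were 6 of the 10 members, 3 of 5 5p arms and 3 of 5 3p arms, and the other 4 were below it on both. This share of 60% is close to the 62.1% of all probes and says nothing particular about the family. The No Probe limit was exceeded on both arrays by 0 of 5 5p arms and by 2 of 5 3p arms, miR-30b-3p and miR-30c-2-3p, against 36.6% of all probes named 5p and 23.9% of all probes named 3p. Over the whole array the share above this limit varied with GC content, as given below.

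Among the 5p arms hsa-miR-30d-5p had the highest signal. In hepatocellular carcinoma miR-30d has been described as promoting intrahepatic metastasis through repression of GNAI2. Its signal was 9.63 for HuH-7-M exosomes and 17.2 for HuH-7-P exosomes. hsa-miR-30c-5p, which lowers lipoprotein secretion in mouse liver by repressing Mttp, read 6.78 for HuH-7-M exosomes and 7.59 for HuH-7-P exosomes. hsa-miR-30b-5p, the neighbour of miR-30d, read 5.13 for HuH-7-M exosomes and 8.46 for HuH-7-P exosomes. All 3 were above the BLANK limit by at least 1 spot SD on both arrays and stayed below the No Probe limit. Of the 320 BLANK spots on the HuH-7-M array, 1 was brighter than miR-30b-5p and 0 were brighter than miR-30c-5p or miR-30d-5p. In HuH-7-M exosomes these arms were also dimmer than the negative control probes, whose values are given with the control probes below. Most of the 85 No Probe spots were brighter than these arms. On HuH-7-M they numbered 85 for miR-30b-5p, 84 for miR-30c-5p and 84 for miR-30d-5p, and on HuH-7-P 85, 85 and 58.

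hsa-miR-30a-5p, which represses SNAI1 and the autophagy gene BECN1, read 1.61 for HuH-7-M exosomes and -0.39 for HuH-7-P exosomes. hsa-miR-30e-5p read -3.20 for HuH-7-M exosomes and -2.82 for HuH-7-P exosomes. Neither was above background on either array: 52 of 320 BLANK spots on the HuH-7-M array and 191 on the HuH-7-P array were brighter than miR-30a-5p, and 314 on the HuH-7-M array and 310 on the HuH-7-P array were brighter than miR-30e-5p. A level this low was not detectable with these arrays, which does not show that the miRNAs were absent from the vesicles.

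The 3p arms were either clearly above the BLANK spots or at their level. hsa-miR-30c-2-3p, which represses XBP1, a transcription factor of the unfolded protein response, was the brightest member, with 41.8 for HuH-7-M exosomes and 52.4 for HuH-7-P exosomes. hsa-miR-30b-3p read 32.1 for HuH-7-M exosomes and 39.1 for HuH-7-P exosomes. On the HuH-7-M array it cleared the No Probe limit by less than 1 spot SD. hsa-miR-30c-1-3p read 24.8 for HuH-7-M exosomes and 22.9 for HuH-7-P exosomes, below the No Probe limit on both. None of the 320 BLANK spots of either array was as bright as these 3. Of the 85 No Probe spots, 1 on each array was brighter than miR-30c-2-3p and 2 on each array were brighter than miR-30b-3p.

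The remaining 3p arms were not above background. hsa-miR-30a-3p read 1.80 for HuH-7-M exosomes and 0.15 for HuH-7-P exosomes, and hsa-miR-30d-3p read -1.58 for HuH-7-M exosomes and -4.16 for HuH-7-P exosomes. miR-30e-3p, the non-member, read -2.36 for HuH-7-M exosomes and -3.55 for HuH-7-P exosomes. In terms of the sequences above, the 2 arms with the seed UGGGAGA were above background on both arrays and the 2 arms with the seed UUUCAGU were not. Another probe with the seed UGGGAGA, miR-6788-5p, read 18.6 for HuH-7-M exosomes and 15.5 for HuH-7-P exosomes. These are too few probes for a comparison of seeds.

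**Figure D1:**
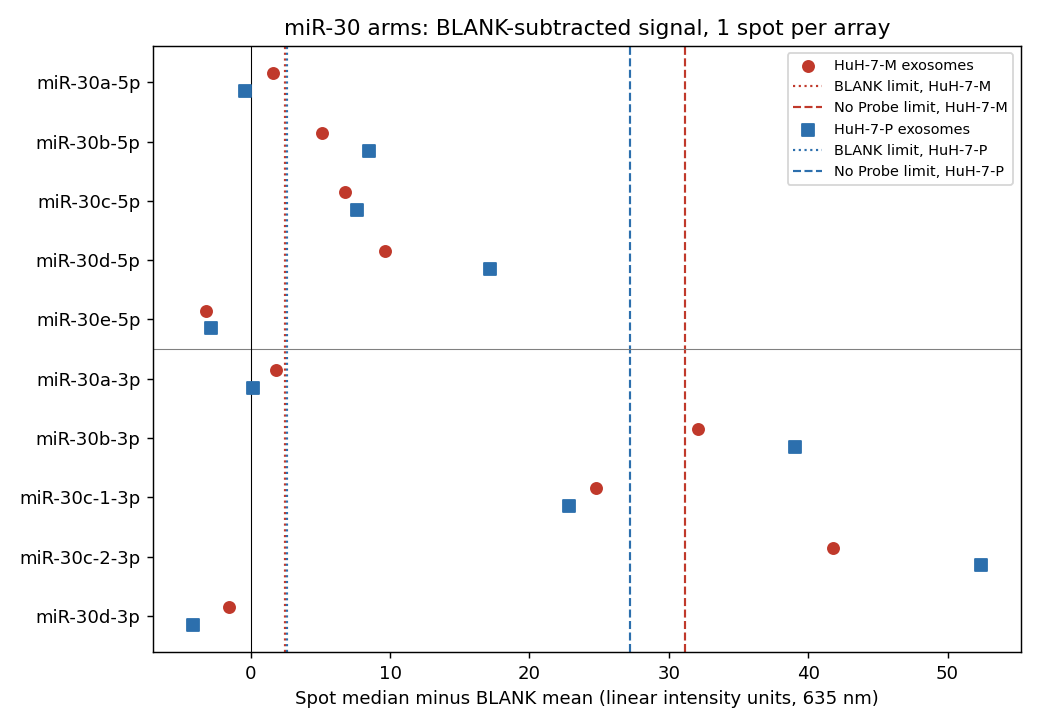
BLANK-subtracted signal (x axis, linear intensity units) of the 10 members (rows, 5p arms above the line), with 1 point for HuH-7-M and 1 for HuH-7-P. Dotted lines are the BLANK limits (2.44 for HuH-7-M, 2.62 for HuH-7-P) and dashed lines those from the No Probe spots (31.2 for HuH-7-M, 27.2 for HuH-7-P); only miR-30b-3p and miR-30c-2-3p lie right of the dashed line of their own array on both arrays.

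Read by hairpin, the arms showed each pattern but 1. miR-30b and miR-30c (with either of its 3p arms) had both arms above the BLANK limit, miR-30d had only its 5p arm, and miR-30a and miR-30e had neither. No member pair had only its 3p arm above the BLANK limit. Among the 810 miRNAs with a 5p and a 3p probe under the same name, which leaves out miR-30c, 49.0% had both arms above it, 15.1% only the 5p arm, 13.1% only the 3p arm and 22.8% neither.

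Under the No Probe limit the miR-30 pairs read differently. miR-30b had only the 3p arm above it, a pattern shown by 8.77% of the 810 miRNAs, against 21.5% with only the 5p arm, 15.9% with both and 53.8% with neither. miR-30a, miR-30d and miR-30e had neither arm above it. miR-30c, which is not among the 810, had only the 3p arm above it with 30c-2-3p and neither arm with 30c-1-3p. No 5p arm of the family exceeded this limit. Which arm was the more abundant in the vesicles cannot be read from this, since the arms are measured by different probes.

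**Figure D2:**
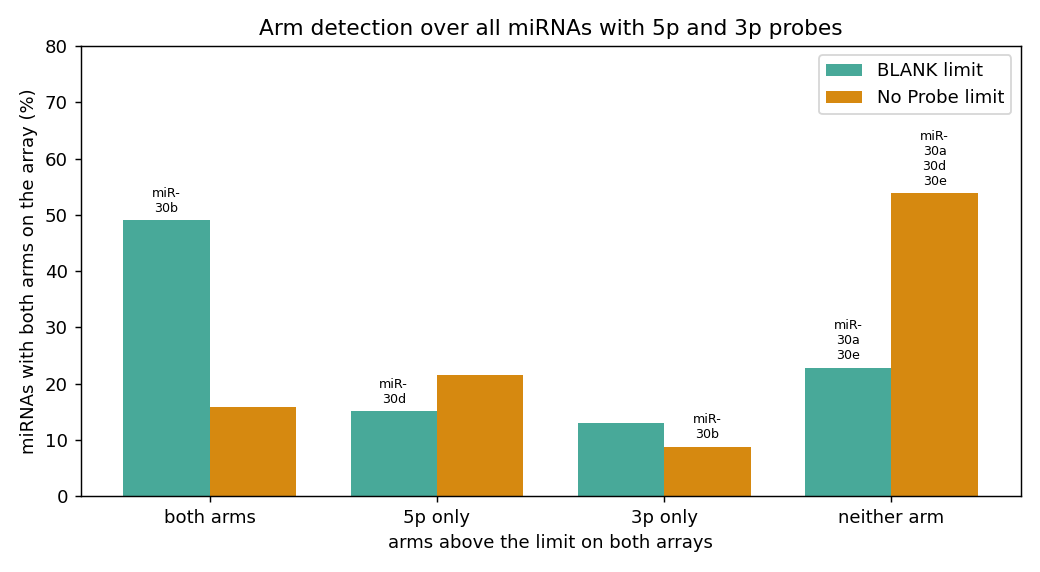
Share (y axis, %) of the 810 miRNAs with both arms on the array by which arms were above a limit on both arrays (x axis), for the BLANK and the No Probe limit. Names above the bars give the class of miR-30a, 30b, 30d and 30e. miR-30b stands with 49.0% of miRNAs under the BLANK limit and with 8.77% under the No Probe limit.

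Base composition moved with brightness over the whole array. Among 2253 of 2565 probes with a RefSeq sequence (87.8%), the GC content of the mature miRNA and the signal had a Spearman rho of 0.77 for HuH-7-M exosomes and 0.76 for HuH-7-P exosomes, and a Pearson r with the log2 signal of 0.62 and 0.61, across probes that share an array and are not replicates. The share above the BLANK limit on both arrays was 20.4% of 432 probes with a GC content from 35% to under 45%, 66.3% of 715 from 45% to under 55% and 89.0% of 508 from 55% to under 65%. For the No Probe limit the shares were 2.31%, 17.1% and 49.0% in the same order. A check of GC content over the family is void, because 6 of its 10 members have a sequence here. Of those 6, miR-30c-1-3p had a GC content of 54.5%, miR-30a-3p and miR-30c-2-3p 50% each, miR-30a-5p 45.5%, miR-30c-5p 43.5% and miR-30e-5p 40.9%. Of these, miR-30c-1-3p, miR-30c-2-3p and miR-30c-5p were above the BLANK limit on both arrays. The part of composition in the arm pattern was not tested.

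For the comparison of the cultures, signals were divided by each array's median over the miRNAs above the BLANK limit and the log2 value of HuH-7-P was subtracted from that of HuH-7-M. The error given with it is the spot SD of the control probes carried through to the log2 scale. Of the 6 measured members, 5 were lower and 1 was higher in HuH-7-M exosomes, and 0 passed a 2-fold difference in either direction. Of all 1593 miRNAs measured on both arrays, 45.8% were below 0, 3.95% were higher by 2-fold or more and 4.21% lower by 2-fold or more, with a median of 0.04.

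The lowest value was that of miR-30d-5p, at -0.80 ± 0.37 (0.57-fold), followed by miR-30b-5p at -0.69 ± 0.70 and miR-30c-5p at -0.13 ± 0.60. The median of the 3 5p arms was -0.69, but only the miR-30d-5p difference was larger than its spot error, at 2.19 times that error. With the larger spot SDs of S-Probe22, a control brighter than the 5p arms, the miR-30d-5p difference was 1.22 times the error. The differences of miR-30b-5p and miR-30c-5p were smaller than their spot error.

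Among the 3p arms miR-30c-2-3p was at -0.29 ± 0.09 (0.82-fold) and miR-30b-3p at -0.25 ± 0.12 (0.84-fold), which are 3.14 and 2.02 times the spot error. With the spot SDs of S-Probe22, the control closest to these arms in brightness (4.00 on HuH-7-M, 3.18 on HuH-7-P), they are 1.79 and 1.16 times the error. miR-30c-1-3p, which shares its seed with miR-30c-2-3p, was at 0.15 ± 0.18, within its error. The median of the 3 was -0.25. Both members above the No Probe limit were thus below 0, as were 38.2% of the 790 miRNAs above that limit on both arrays. The 5p and the 3p medians rest on 3 single spots each and their difference was not tested. MIR30B and MIR30D lie 4268 bases apart on chromosome 8 within the span of ZFAT, and their arms gave the 3 values of -0.80, -0.69 and -0.25, and the 3p arms of the miR-30c genes on chromosomes 6 and 1 gave -0.29 and 0.15.

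Control probes of the same brightness also differed between the arrays. The 6 of the 12 that were above the BLANK limit on both arrays were all higher on HuH-7-M, by 0.16 to 0.94 with a median of 0.59 (median of their spots, same scale). They include the probes named Negative Control 1, 2 and 3, with median signals of 19.8, 12.4 and 16.1 for HuH-7-M exosomes. For HuH-7-P exosomes their medians were 10.5, 8.49 and 10.8. In HuH-7-M exosomes each of these was brighter than every 5p arm of the family. In HuH-7-P exosomes miR-30d-5p (17.2) was brighter than each, while miR-30b-5p (8.46) and miR-30c-5p (7.59) were dimmer than each. S-Probe22, the closest in brightness to the 3p arms, read 36.5 for HuH-7-M exosomes and 33.5 for HuH-7-P exosomes (0.16). The measured miR-30 differences, from -0.80 to 0.15, are thus of the size seen between the arrays for control probes, with the opposite sign for 5 of 6, and their part in the result was not tested.

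**Figure D3:**
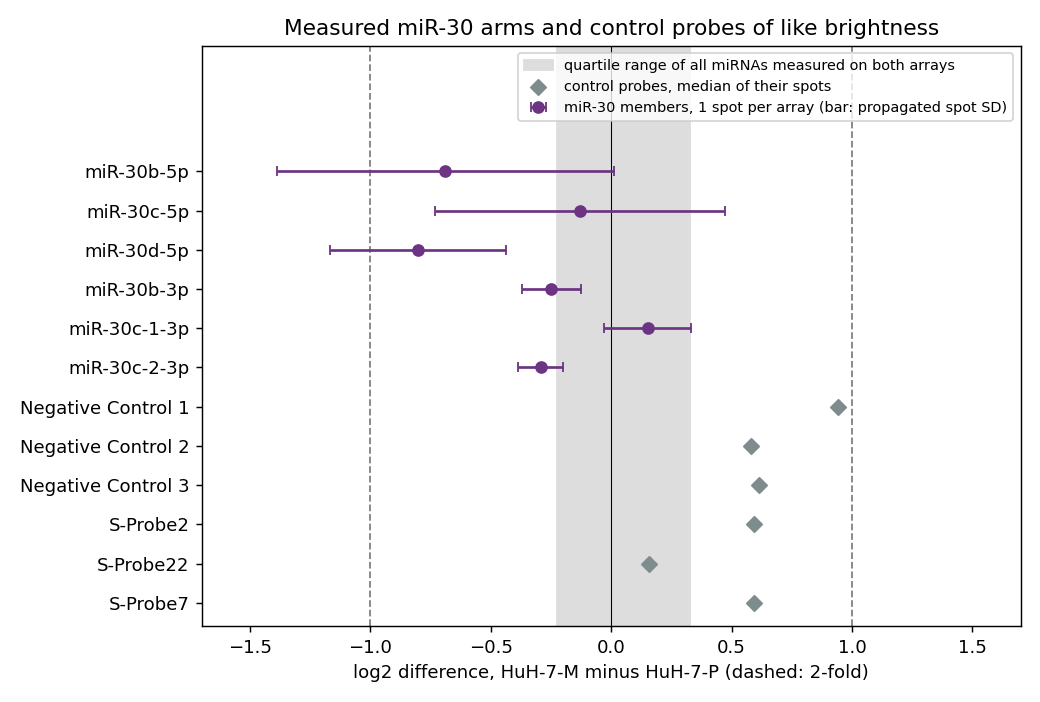
log2 difference of HuH-7-M from HuH-7-P (x axis, positive where HuH-7-M is higher) of the 6 measured members, with bars for the propagated spot SD, and of 6 control probes (medians of 8 or 16 spots). The grey band runs between the quartiles of all measured miRNAs (-0.22 to 0.33) and dashed lines mark 2-fold; the members lie from -0.80 to 0.15 and the control probes from 0.16 to 0.94.

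The direction of 2 of the 6 members changed with the processing. miR-30c-1-3p was higher in HuH-7-M exosomes at 0.15, but at -0.47 after scaling to the spike controls, which moved the median of all miRNAs to -0.58. miR-30b-3p, at -0.25, was at 0.04 with the scanner's background column subtracted, a setting under which 2 of the 4 members with a value were below 0. Relative to the median of the spike scale miR-30c-1-3p was 0.11, and miR-30d-5p, at -1.42 on the spike scale, was -0.84. On that scale miR-30b-5p (-1.30) was also past 2-fold lower. With normexp correction, an offset of 50 and quantile normalization, steps that pull dim probes toward 0, the 6 members lay between -0.17 (miR-30d-5p) and 0.06 (miR-30c-1-3p). With the mean of the No Probe spots taken as background, only miR-30b-3p (-1.26) and miR-30c-2-3p (-1.03) were given a value, and both were past 2-fold lower in HuH-7-M. miR-30c-1-3p was above the mean of all No Probe spots on both arrays (24.8 against 22.3 on HuH-7-M, 22.9 against 20.1 on HuH-7-P). It was below the No Probe limit and had no value there.

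**Figure D4:**
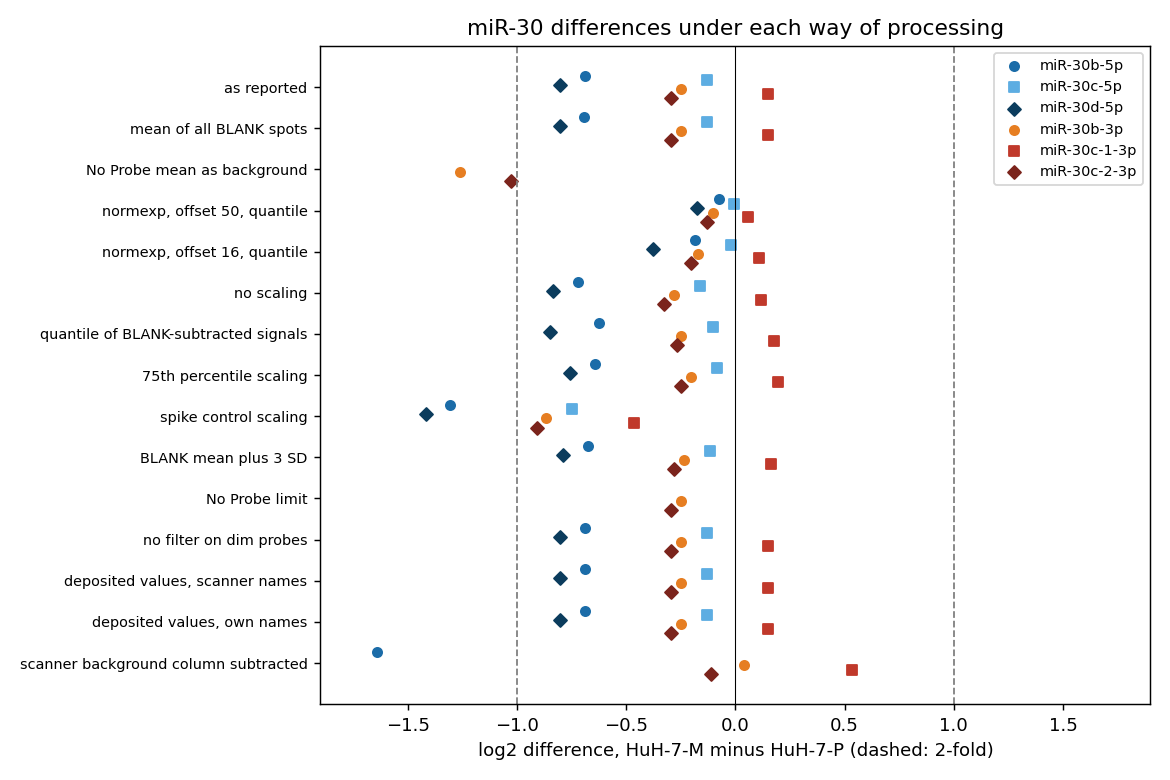
log2 difference of HuH-7-M from HuH-7-P (x axis, positive where HuH-7-M is higher) of each measured member under each way of processing (rows), with dashed lines at 2-fold. miR-30d-5p runs from -1.42 to -0.17 where it was measured, and miR-30c-1-3p lies right of 0 under each way shown but the spike control scaling.

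The values of the authors' deposited table could be rebuilt for the family. The authors' deposited table gives miR-30d-5p as 8.09 for HuH-7-M and 14.1 for HuH-7-P, miR-30b-5p as 4.31 and 6.95 and miR-30c-2-3p as 35.1 and 43.0 in the same order, on a scale of 25 times the signal over the array's median. In the authors' deposited table the 4 members below the BLANK limit are blank in both columns. The identifiers of all 10 members stand in rows before row 1134, the row from which the table's names part from those of the scanner output, so both sources name these members alike.

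Counts in the families most like miR-30 in make-up are set beside these. Of 9 let-7 5p probes, guides of another large family of related sequences, 1 was above the BLANK limit on both arrays, with a difference of -0.64, against 3 of 5 miR-30 5p arms with a median of -0.69. In the miR-25 and miR-92 family 3 of 6 5p arms and 3 of 5 3p arms were above it, with a median difference of 0.56 over the 6, 5 of them higher in HuH-7-M, against a median of -0.27 over the 6 measured miR-30 members. The No Probe limit was exceeded on both arrays by 3 of 6 5p arms and 1 of 5 3p arms of that family. For miR-30 the counts were 0 of 5 and 2 of 5, and for let-7 0 of 9. All go by arm name. The guide need not be the 5p arm in each family, so 5p against 5p need not be guide against guide. These counts were not tested against each other. The probes closest to miR-30c-2-3p in their pair of scaled log2 signals were miR-3935, miR-6887-3p and miR-3944-3p, at distances of 0.054, 0.059 and 0.072, over 2 arrays only. Of the hepatocyte miRNAs miR-122-5p, miR-192-5p, miR-194-5p and miR-885-5p, 4 of 4 were above the BLANK limit on both arrays (62.1% of all probes), as were 4 of 4 blood miRNAs and 1 of 4 of endothelium and stroma, and 2, 0 and 0 of these exceeded the No Probe limit (30.8% of all probes), with summed signals of 140 for HuH-7-M exosomes and 112 for HuH-7-P exosomes, 51.5 and 57.6, and 17.6 and 18.1.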

How the data were processed

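RNA of vesicles from 2 HuH-7 cultures was profiled on a 1-colour miRNA array, 1 array per group, grouped by sample title. The deposited scanner output holds 3200 spots with, per the file headers, the median Cy5 intensity of each at 635 nm, with no background subtracted, and a column headed as background, which was used only as an alternative. The authors' deposited table of processed intensity was also used, and the sources used here do not say how it was made. Of 1747 probes above the limit on either array, 1739 had their rebuilt values in 1 row of it (relative tolerance 1e-06). Of the 1737 of these whose identifier the table lists, 699 stood under the scanner's name and 1038 under another, so scanner names were used.

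BLANK means and SDs left out the top and bottom 5% of 320 spots. Signals were scaled by each array's median above the limit and taken to log2 in Python 3.11.15. Alternatives with normexp and quantile normalization used limma 3.58.1 in R 4.3.3. The functions were tested on simulated data with large changes planted in bright probes only, so that test does not bear on the small differences of dim members. No p-value was computed, since each group has 1 array, and precision is limited by that number. All 10 members are named by rule, and other probes by the lists and the nearest-signal rule given in the text. Members and lists were chosen with earlier results of these data known.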

Additional observations from a re-analysis of the deposited data

How the results depend on the processing

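No paired analysis was possible because each group has 1 array, and no replicate could be left out. Over 14 alternatives, 3 3p arms above background became 2 with the No Probe limit or the No Probe mean as background and without a filter on dim probes 4 had a signal above the BLANK mean on both arrays. The count of 5p arms, 3, became 0 with the No Probe limit, 0 with the No Probe mean and 1 with the scanner's background column subtracted, an alternative chosen after seeing the data. On HuH-7-P that column exceeds the spot's own signal for miR-30a-5p (69.6 against 59.3), miR-30c-5p (74.5 against 67.3) and miR-30d-5p (82.7 against 76.9), which leaves them no value. The 5p median of -0.69 was -0.075 with normexp and an offset of 50, -1.30 with spike control scaling and -1.64 with the background column. The 3p median of -0.25 was -1.14 with the No Probe mean, -0.10 with normexp and an offset of 50, -0.86 with spike control scaling, -0.049 without a filter and 0.038 with the background column. Members at least 2-fold lower numbered 0, but 2 with the No Probe mean, 2 with spike control scaling and 1 with the background column (miR-30b-5p, -1.64), and 1 member was at least 2-fold higher without a filter (miR-30a-3p, below the BLANK limit on both arrays). For all miRNAs, 63 higher and 67 lower became 7 and 27 with normexp and an offset of 50, 16 and 39 with an offset of 16, 15 and 77 with the No Probe mean, 8 and 259 with spike control scaling, 32 and 25 with the No Probe limit, 118 and 137 without a filter and 374 and 184 with the background column. The cause was not tested, beyond the offset, which pulls dim probes toward 0 by construction, and the No Probe limit, which leaves fewer probes. Signal over background limits the 5p differences, whose spot errors run from 0.37 to 0.70 on the log2 scale, against 0.09 to 0.18 for the 3p arms.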
